A study of Drosophila melanogaster with 12 samples.

Results

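Gene expression in the heads of adult Drosophila melanogaster was compared between subjective day and subjective night on a day of constant darkness (DD). The comparison used 6 of the 12 arrays of the series, chosen by the time given in their titles. Subjective day was CT4, CT8 and CT12 and subjective night was CT16, CT20 and CT24, where circadian time (CT) counts hours from the former time of lights-on. All flies carried y w, mutations of body colour and eye pigment, and all had been held in cycles of 12 h light and 12 h dark before darkness began. The 6 arrays of the preceding light/dark day (LD) are written by Zeitgeber time (ZT), with the light phase at ZT4, ZT8 and ZT12 and the dark phase at ZT16, ZT20 and ZT24. The labels give neither age nor sex, and each array holds RNA pooled from the heads of many frozen flies. Each hour has 1 array, so the 3 arrays of a group are 3 different hours, and their spread holds both the change from hour to hour and the variation between samples. Subjective night also came after subjective day, so phase and time spent in darkness cannot be told apart within DD.

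A difference between subjective day and subjective night in DD arises without any light. The classical sign of an internal clock is such a difference that recurs day after day in darkness, and a single day of darkness was sampled here. In flies the clock is a transcriptional feedback loop. CLOCK and CYCLE activate period (per) and timeless (tim), whose proteins return to the nucleus and repress their own genes. A second loop runs through the activator gene Pdp1 and the repressor gene vrille (vri), which act on Clk. The eyes, glia and fat tissue of the head hold such clocks beside the brain neurons. A contrast of CT4 to CT12 with CT16 to CT24 is most sensitive to transcripts that peak near the middle of the subjective day or night. It is least sensitive to those that peak near dusk or dawn.

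The arrays did not have equal RNA quality or tissue content. The signal of the 3′ probe sets minus that of the 5′ probe sets of 3 control transcripts, a sign of RNA degradation or short labelling, was 3.45 (log2) at CT12 and 2.64 at CT4. It lay between 1.69 and 1.88 in the other 4 DD arrays and reached 3.12 at ZT4. The summed signal of 23 genes of the male reproductive tract was 10.37 to 12.40 (log2) in the subjective day and 9.79 to 11.23 in the subjective night. For 31 digestive genes of the midgut it was 12.17 to 13.14 and 11.08 to 12.81. Both sums were highest at CT12 and lowest at CT16 and CT20, while CT24 lay within the range of the day arrays. In exact permutation tests (two-sided) the control signal differed with p = 0.4 and the midgut score with p = 0.2, and 3 against 3 arrays cannot give less than 0.1. In pooled heads, fewer cells of a type and less RNA per cell cannot be told apart. Pairs of DD arrays correlated at 0.961 to 0.995, and none held identical values.

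**Figure D1:**
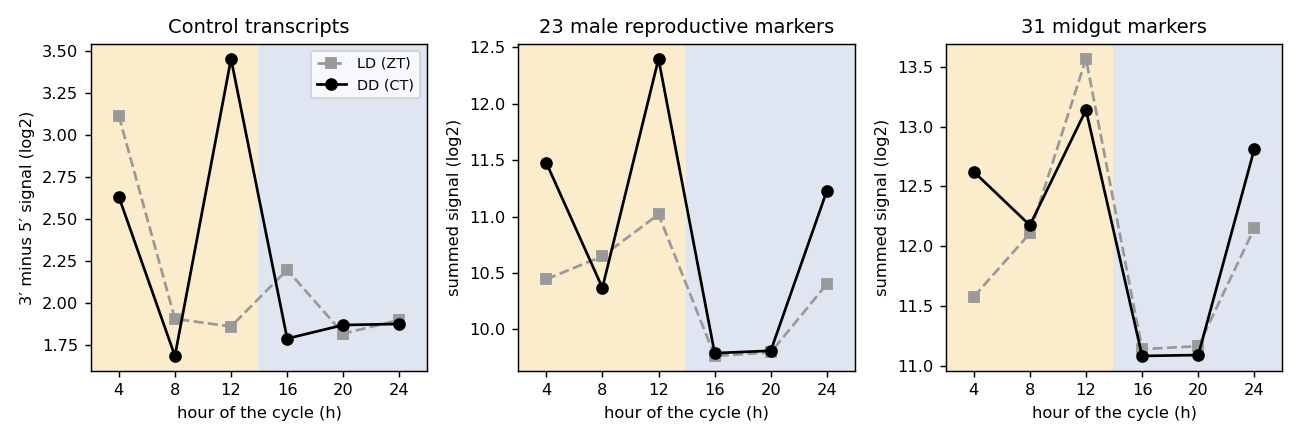
Each panel plots 1 value per array against the hour of the cycle, for DD (black circles) and LD (grey squares); the shaded parts are the day (4 to 12 h) and night (16 to 24 h) groups. The control signal stands out at CT12 (3.45) and ZT4 (3.12), and both marker sums are lowest at 16 and 20 h on both days.

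No transcript passed a test over the whole array. Of 13966 probe sets, 0 had an adjusted p under 0.05 in limma (0% called), and the smallest adjusted p was 0.663. Before adjustment, p was under 0.05 for 1014 probe sets (7.26%), where 698 would be 5% of those tested. Differences were small. The median size over 10845 genes, each represented by 1 probe set, was 0.101 (log2), close to the median standard error of 0.109, and 76.7% of genes differed by less than 0.2. The 3 day arrays lay above the 3 night arrays in 659 genes (6.08%) and below them in 880 genes (8.11%). Without CT12 the count with an adjusted p under 0.05 was again 0 (0% called), with a smallest adjusted p of 0.351 and 796 probe sets (5.7%) at an unadjusted p under 0.05. The groups then did not overlap in 996 genes higher in the day (9.18%) and 1475 lower (13.6%), with 2 day arrays left. Leaving out CT8 gave 44 calls, 12 higher in the day and 32 higher in the night, and those calls set CT4 and CT12, the arrays with the high control signal, against the night. One of them was eEF1alpha2, a translation elongation factor gene named here after its values were seen. It measured 6.36 (log2) at CT4 and 5.83 at CT12, against 8.73 at CT8 and 8.58 to 8.67 in the night. Also called without CT8 were Ttd14, Ggamma30A, Pis, DnaJ-1 and Gad1, higher in the night. Others were mRpL33, BomT2 and Spn38F, higher in the day, and all of these are described further on.

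Among the clock genes, tim had the largest difference. It measured 4.39 (log2) at CT4, 4.83 at CT8 and 5.64 at CT12, then 6.35 at CT16, 5.79 at CT20 and 5.49 at CT24. It was lowest at CT4 and highest at CT16, and the groups overlapped only because CT12 lay above CT24. The day minus night difference was -0.92 ± 0.348 (log2, SE; n = 3 and 3), a 1.9-fold higher night level, with an unadjusted limma p of 0.0338 and an adjusted p of 0.663. Without CT12 the difference was -1.27, with an unadjusted limma p of 0.00369. A further probe set of tim gave -0.68, and one more with a mean signal of 2.30, near the lowest values on the arrays, gave 0.02.

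Several other genes of the loops peaked near the border of the groups. In DD, per was 6.10 (log2) at CT12 and 5.6 to 5.72 at the other 5 hours. Its difference was 0.08 ± 0.149 (log2, SE), and it changed sign without CT12, to -0.08. For vri the values were 5.42, 6.58 and 7.24 at CT4, CT8 and CT12, and 6.32, 5.85 and 5.75 at CT16, CT20 and CT24. High values of vri thus lay on both sides of dusk, and its difference was 0.44 ± 0.437 with CT12 and 0.03 without it. The deubiquitinase gene Usp8 was 7.15 at CT12 and 6.61 at CT16 but 4.97 to 5.62 at the other hours. Its difference, 0.39 ± 0.548, became -0.13 without CT12. Clk itself was highest at CT8 (4.17, log2) and lowest at CT16 (3.10), a difference of 0.36 ± 0.209, in a signal below the median of all probe sets. The activator partner gene cyc differed by -0.03 ± 0.112, Pdp1 by 0.16 ± 0.167 and the repressor gene cwo by -0.03 ± 0.132. Without CT12 they differed by -0.14, -0.009 and -0.14. Another, dim probe set of cwo gave the opposite sign, 0.51 (unadjusted limma p 0.107).

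Other clock genes act on the PERIOD protein or its translation. The groups did not overlap in 4 of all 18 measured clock genes, 2 higher in the day and 2 in the night. These 4 are among the genes described here, and over all genes the share without overlap was 14.2%. The gene tws encodes a regulatory subunit of protein phosphatase PP2A, which removes phosphate from PERIOD. It measured 4.15, 4.50 and 4.56 (log2) in the subjective day and 3.76, 3.92 and 3.78 in the subjective night. All day values lay above all night values, by 0.58 ± 0.127 (log2, SE; 1.5-fold, unadjusted limma p 0.00267), and by 0.50 without CT12. Its signal was below the median of all probe sets, and another, dimmer probe set of tws differed by 0.37. The kinase gene dco (doubletime) was also above the night in all day arrays, but CT12, at 7.46, stood apart from CT4 at 6.44 and CT8 at 6.60. The night arrays of dco were at 6.21 to 6.35, and its difference was 0.54 ± 0.257 with CT12 and 0.22 without. The F-box gene slmb, which marks phosphorylated PERIOD for degradation, was lower in the day. Its day values were 3.44 to 3.94 and its night values 3.98 to 4.34, a difference of -0.45 ± 0.168 in a dim signal. The gene tyf, a translational activator of per, differed by -0.24 ± 0.093, and Atx2, its partner in translation, by -0.33 ± 0.378.

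The groups overlapped for the genes of light input and neuropeptide output. The photoreceptor gene cry differed by -0.19 ± 0.264, with its lowest value at CT12 (7.17, log2), and by 0.12 without that array. The F-box gene jet differed by -0.20 ± 0.122. Pdf, the neuropeptide of clock neurons, differed by 0.02 ± 0.118 and its receptor gene Pdfr by -0.20 ± 0.122, and the chromatin remodeller gene kis by 0.09 ± 0.0901. Other, dim probe sets of kis differed by 0.39 (unadjusted limma p 0.0206) and 0.08. Without CT12, Pdfr differed by -0.0975. Of the 18 measured clock genes, 4 had an unadjusted p under 0.05 (1 higher in the day and 3 in the night), where 7.11% of all genes did (3.53% higher in the day and 3.58% lower), and 0 passed after adjustment. Their median difference was -0.01 (log2), as over all genes (-0.01). Fitted over the 6 DD arrays, peaks were at 17.0 h for tim, 13.6 h for per, 13.2 h for Usp8, 12.3 h for vri and 6.11 h for Clk. These hours are a description from 1 array per hour, without an estimate of their uncertainty. The fit was not repeated without CT12, the highest array of per, Usp8 and vri.

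**Figure D2:**
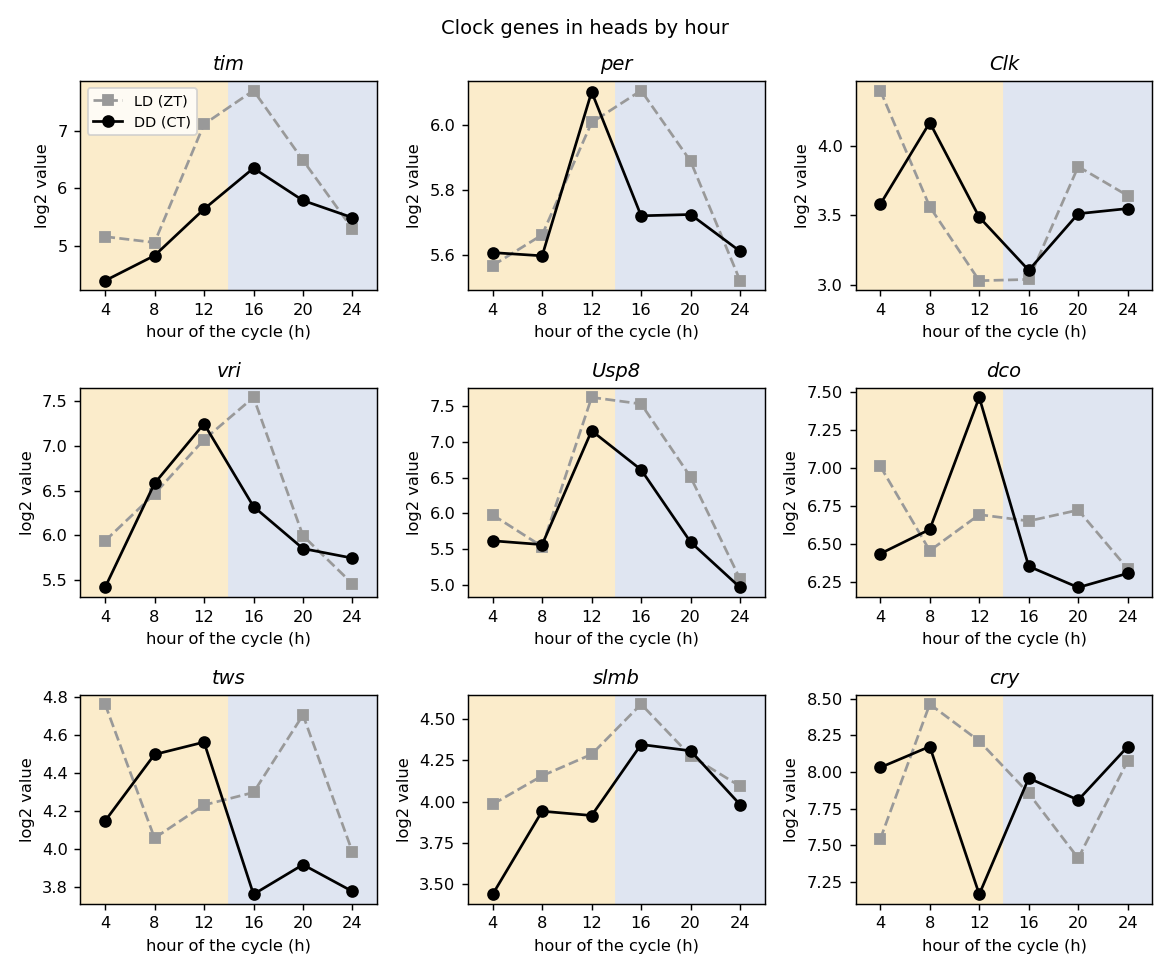
Log2 values of 9 clock genes are plotted against the hour of the cycle, 1 array per point, for DD (black circles) and LD (grey squares), with the day and night groups shaded. In DD tim is highest at CT16 (6.35) while per, vri, Usp8 and dco are highest at CT12, and tws is above all night arrays at CT4, CT8 and CT12.

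The 12 genes of smallest p that were higher in the subjective day, did not overlap between groups and had a mean signal at or above the median of all probe sets had unadjusted limma p of 0.000623 to 0.00396. Each had an adjusted p of 0.663, so none passed, and they were 1.32-fold to 2.00-fold higher in the day. PRL-1, which encodes a phosphatase of the regenerating liver family, measured 5.41, 5.38 and 5.22 (log2) in the day and 4.84, 4.86 and 4.74 in the night. All 3 day arrays of Ace, the acetylcholinesterase gene, lay within 5.30 to 5.34 and all 3 night arrays within 4.88 to 4.93. The tightness of Ace within each group gave a difference of 0.41 ± 0.0710 (log2, SE). Genes of synapses in this set were Ace and Vmat, the transporter that loads monoamines into vesicles. Vmat was at 7.64 to 7.84 in the day and 7.13 to 7.46 in the night, a difference of 0.51 ± 0.114. Another, dim probe set of Vmat differed by 0.0007 (unadjusted limma p 0.994).

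Genes of membranes and the cell cortex were also in this set. Moe, which links actin to the membrane, differed by 0.81 ± 0.160 (log2, SE), and mys, a subunit of integrin, by 0.44 ± 0.0929. The gene atl, for a GTPase that fuses membranes of the endoplasmic reticulum, differed by 0.58 ± 0.113. The Ras-like GTPase gene Ric measured 7.07, 7.01 and 6.88 in the day and 5.69, 5.92 and 6.49 in the night, so that CT24 lay between CT20 and the day. Its difference was 0.95 ± 0.201. Genes of varied function completed the set. The gene stau, which localises RNA, was 2.00-fold higher in the day (1.0 ± 0.180), and its other probe set differed by 1.22. TP53INP, linked to autophagy, differed by 0.86 ± 0.182, the helix-loop-helix repressor gene emc by 0.67 ± 0.148, the translation release factor gene eRF3 by 0.40 ± 0.0924 and CG17646 by 0.50 ± 0.0944. The other probe set of CG17646 gave the opposite sign, -0.43 (unadjusted limma p 0.042).

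The 12 genes chosen in the same way that were higher in the subjective night had unadjusted limma p of 0.000322 to 0.00286 and the same adjusted p of 0.663. They were 1.40-fold to 2.60-fold higher in the night. Obp99a encodes a secreted odorant-binding protein. It measured 8.45, 7.74 and 8.25 (log2) in the day and 9.27, 9.71 and 9.20 in the night, a 2.38-fold higher night level (-1.25 ± 0.214, SE). Without CT12 and CT4 the single remaining day array, CT8, gave -1.66. Ttd14, which takes part in moving the light channel TRPL in photoreceptors, had the largest fold of the 12 and measured 5.28, 6.38 and 5.46 in the day and 7.26, 7.20 and 6.79 in the night. Its lowest values of all 12 arrays fell at CT4, ZT4 (5.29) and CT12, where the control signal was also highest. The difference of Ttd14 was -1.38 ± 0.294 over all 6 arrays and -0.71 without CT12 and CT4.

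Glyp and Gld encode enzymes that act on glycogen and glucose. Glyp encodes glycogen phosphorylase, which releases glucose from glycogen, and was at 9.19 to 9.20 (log2) in all 3 night arrays. Its day values were 8.59, 8.78 and 8.22, lowest at CT12, and its difference was -0.67 ± 0.143, or -0.51 without CT12. The glucose dehydrogenase gene Gld differed by -0.57 ± 0.126. Genes of protein and RNA turnover were ben, a ubiquitin-conjugating enzyme gene (-0.78 ± 0.158), and gw, a gene of microRNA silencing (-0.97 ± 0.212). The prenyltransferase subunit gene betaggt-I had the smallest p of all 24, with 4.64 to 4.74 in the day and 5.21 to 5.55 in the night (-0.71 ± 0.106). The other 5 were futsch, which stabilises microtubules in axons (-0.48 ± 0.0866), Chpf, an enzyme gene of chondroitin synthesis (-0.49 ± 0.10), CG3556, CG42361 and CG15717 (-0.51, -0.59 and -0.62). Other probe sets of futsch, which were dim, gave -0.00 and 0.11, and those of Ttd14, gw and Chpf gave -0.84, -0.88 and -0.25.

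**Figure D3:**
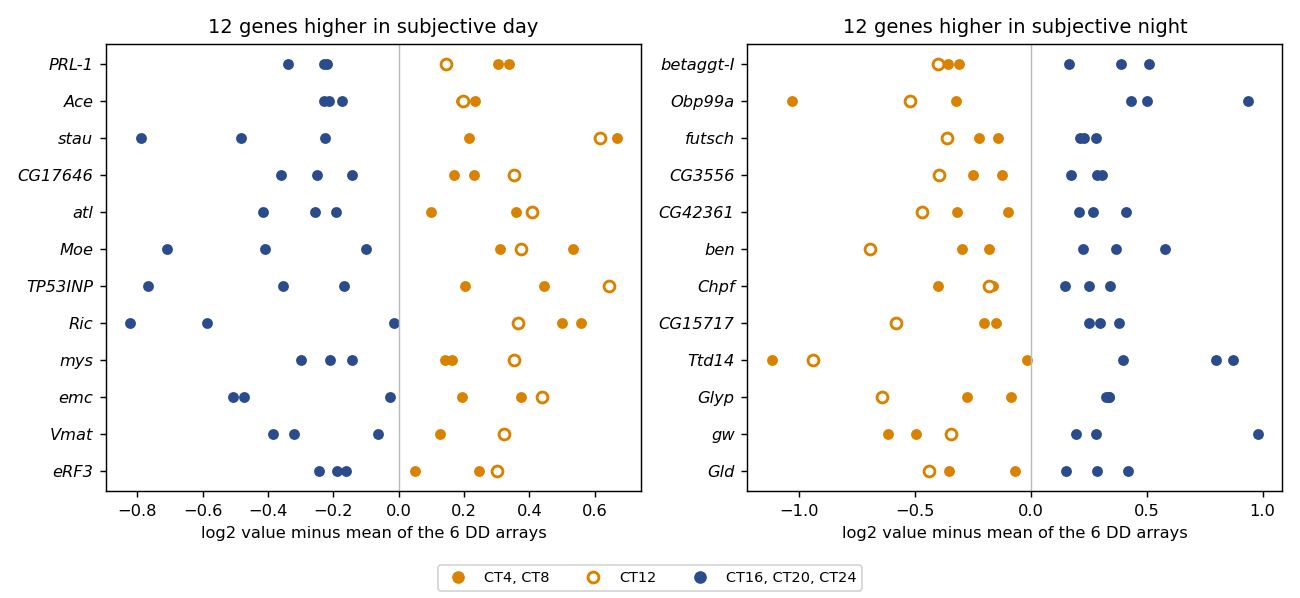
Each row is 1 gene and each point 1 DD array, as the log2 value minus the mean of the 6 arrays; orange points are CT4 and CT8, open orange circles CT12 and blue points CT16, CT20 and CT24. The groups do not overlap by the way the genes were chosen, and CT12 is the lowest array in 8 of the 12 genes higher in the night.

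The choice of genes without overlap fixed the direction of the 24 differences, whichever arrays are left out. Without CT12 they ranged from 0.34 to 1.0 (log2) for the genes higher in the day and from -1.30 to -0.42 for those higher in the night, and none passed (adjusted p 0.724 to 0.817). The LD day, whose arrays had no part in the choice, gave the same direction for 8 of the 12 day genes and 7 of the 12 night genes. Over all genes 58.7% had the same direction on both days, as did 73.9% of all genes without overlap that were higher in the day and 58.2% of those higher in the night. None of the 24 had an unadjusted limma p under 0.05 in LD, where 4.84% of all genes did. In LD the arrays at the extremes were often ZT4, of the light phase, and ZT20, of the dark phase. ZT4 and ZT20 were the 2 highest LD arrays in 9 of the 12 day genes and the 2 lowest in 10 of the 12 night genes. Over all genes that were higher in the subjective day or night, this held for 20.0% and 23.4%, and over those without overlap for 33.1% and 36.1%. ZT20 had a low control signal (1.82, log2), and the part of any shared difference between arrays in these results was not tested.

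Differences of at least 2-fold were few. They numbered 58 genes higher in the day (0.535%) and 10 higher in the night (0.0922%). The groups did not overlap in 14 and 7 of them, against 6.08% and 8.11% of all genes. Without CT12, 29 of the 58 and 4 of the 10 were still at least 2-fold higher. The set without overlap was formed after the values were seen, and 14 of its 14 day genes and 6 of its 7 night genes had the same direction in LD. That direction was shared by 58.7% of all genes. Among all genes without overlap it was shared by 73.9% of those higher in the day and 58.2% of those higher in the night. In the 14 day genes CT12 was the highest array in 12, and 6 of the 14 were still 2-fold higher without CT12. The exceptions at CT12 were Ugt35B1 and mRpL33. Ugt35B1, a glucuronosyltransferase gene of detoxification, was 9.47 (log2) at CT4, 8.02 at CT8 and 8.01 at CT12, and 7.10, 6.61 and 7.36 in the night. It was highest in the subjective morning, 2.79-fold higher in the day (1.48 ± 0.416), and 1.72 higher (log2) without CT12. The mitochondrial ribosomal protein gene mRpL33 was high at CT4 (6.06) and CT12 (5.68) and low at CT8 (4.19), close to the night (3.86 to 4.10).

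The others of the 14 included genes of other tissues and of immunity. The flight muscle actin gene Act88F was 7.30, 7.30 and 9.73 in the day and 4.21, 4.78 and 7.27 in the night, so that CT24 lay just below CT4 and CT8. Of the 17 muscle markers, 8 were higher in the day, with a median of -0.03. Acp62F, a seminal fluid gene, was 7.96 at CT12 and 5.16 to 6.71 at the other hours. The bomanin genes BomT2 and BomS5, which encode secreted immune peptides, were 2.58-fold and 2.34-fold higher in the day, both highest at CT12 and next highest at CT4. CG12374, CG16904, CG9281, CG10911, Cpr49Ae (a cuticle protein gene), whe, Spn38F (a serpin gene) and Rbfox1, which binds RNA, were 2.04-fold to 6.50-fold higher. The sums of male reproductive and midgut markers and the control signal were also highest at CT12, and their part in these values was not tested. Of the 7 night genes, 3 were still 2-fold higher without CT12, namely Obp99a, Ttd14 and Smox, the gene of a Smad protein of activin signalling. Smox measured 3.70 to 4.16 in the day and 4.77 to 5.50 in the night, a difference of -1.04 ± 0.224, in a signal below the median of all probe sets. Ggamma30A, a G protein subunit gene of the photoreceptors, was 7.0 at CT4 and 6.4 at CT12, but its CT8 value of 8.03 was nearer to the night (8.44 to 8.62). Without CT12 and CT4 its difference went from -1.36 to -0.47. The inositol lipid synthase gene Pis (-1.09 to -0.10) and the trehalose transporter gene Tret1-1 (-1.07 to -0.13) were smaller in the same way, and CG34227 went from -1.0 to -0.88.

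Gene lists were described by their counts and medians, and in every list 0 members passed over all probe sets. Genes of antioxidant defence were lower in the day in 12 of 14 cases, with a median of -0.24 (log2) against -0.01 for all genes. Catalase (Cat), which breaks down hydrogen peroxide, measured 9.26, 9.54 and 9.17 in the day and 9.76 to 9.85 in the night (-0.47 ± 0.112, SE). The methionine sulfoxide reductase gene MsrA measured 5.38, 5.61 and 5.08 in the day and 5.83 to 6.01 in the night (-0.55 ± 0.144). Both genes had no overlap, and both were lowest at CT12. Without CT12 the list median was -0.06 and 8 of 14 members were lower in the day. Heat shock and chaperone genes were lower in the day in 6 of 9 cases, with a median of -0.26, and without CT12 in all 9, with a median of -0.22. The co-chaperone gene DnaJ-1 measured 6.77, 7.72 and 6.49 in the day and 7.86 to 8.01 in the night, lowest at CT4 and CT12. Hsp26 and Hsp68, inducible chaperone genes, differed by -0.30 ± 0.105 and -0.34 ± 0.132, and the mitochondrial chaperone gene Hsp60A by -0.50 ± 0.192. Without CT12, Hsp68 differed by -0.22 and Hsp60A by -0.31. In LD the median of the heat shock list was 0.03, with 6 of 9 higher by day.

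Phototransduction genes had a median of -0.22, with 12 of 17 lower in the day, and -0.04 without CT12. Gbeta76C, the G protein subunit gene of the photoreceptors, was 7.86 at CT12 and 9.60 to 10.17 at the other DD hours. The retinophilin gene rtp was 9.34 to 9.49 in the day and 9.61 to 9.71 in the night. This narrow gap of -0.26 ± 0.0807 was not set by CT12 (-0.30 without it). In LD rtp went the other way, by 0.41 ± 0.163, with 9.22 to 9.54 in the light and 8.79 to 9.33 in the dark. Of the retinoid and transmitter recycling genes, 6 of 11 were higher in the day. The pigment cell dehydrogenase gene Pdh measured 10.22, 9.76 and 9.57 in the day and 9.76, 9.26 and 8.84 in the night, highest at CT4 and lowest at CT24.

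Carbohydrate genes were found on both sides. Mal-A1 and Mal-A6, maltase genes for the digestion of dietary sugar, were higher in the day by 0.44 ± 0.180 and 0.40 ± 0.125 (log2), while Glyp and the trehalose synthase gene Tps1 had differences of -0.67 and -0.77. Mal-A1 differed by 0.29 without CT12 (unadjusted limma p 0.118) and by 0.15 without CT12 and CT4, and Mal-A6 by 0.30 and 0.19. The median of the midgut markers moved from 0.41 to 0.19 and 0.01 in the same fits, and its part in the maltase values was not tested. Tps1 was 8.93 at CT12 and 10.03 to 10.12 at CT4 and CT8, and its difference without CT12 was -0.38. The list median was 0.05, with 17 of 30 higher in the day. In lipid metabolism 13 of 19 were higher in the day with a median of 0.02, among them mdy, an enzyme gene of triglyceride synthesis (0.71 ± 0.254). The 148 detoxification genes had a median of 0.02, and 81 were higher in the day. Beside Ugt35B1 its list held Ugt35A1 (0.60 ± 0.118, dim signal) and GstD9 (0.46 ± 0.164). GstD9 differed by 0.39 without CT12 (unadjusted limma p 0.0758) and by 0.13 without CT12 and CT4.

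Most fat body genes were lower in the day. In the fat body list 10 of 12 were lower in the day, with a median of -0.34, and without CT12 10 of 12 with a median of -0.17. Obp99b measured 7.04, 6.54 and 6.23 in the day and 7.41, 7.34 and 7.61 in the night (-0.84 ± 0.204). The storage protein gene Lsp2 was 6.62 to 6.98 in the day and 7.04 to 7.52 in the night (-0.50 ± 0.150). The yolk protein genes Yp2 and Yp3 were 11.86 and 12.51 at CT12 but 12.86 and 13.22 or more at the other DD hours. Odorant-binding and olfactory genes had a median of -0.04, with 27 of 42 lower in the day, and cuticle genes also -0.04, with 68 of 104 lower. The cuticle-related gene CG7203 was at 13.17 at CT12 and 11.78 at CT24, a difference of 0.61 ± 0.231.

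Nervous system lists had medians near 0. Neuronal genes had a median of 0.05, with 12 of 16 higher in the day, and -0.02 without CT12, with 7 of 16 higher. ChAT, for the enzyme that makes acetylcholine, was 5.99 to 6.43 in the day and 5.76 to 5.81 in the night (0.41 ± 0.120), in the same direction as Ace. Gad1, of the same list, went the other way by -0.78. It was 6.03, 6.88 and 5.72 in the day and 6.90 to 7.06 in the night. The synaptic genes unc-13 and nwk differed by 0.42 ± 0.135 and -0.34 ± 0.0935. Among sleep genes (median -0.05), insomniac (inc), which links a ubiquitin ligase to sleep, differed by 0.41 ± 0.153. Neuropeptide genes had a median of -0.04, with Nplp1 at -0.22 ± 0.0802, glial genes -0.00, with the glutamine synthetase gene Gs2 at -0.41 ± 0.155, and activity-regulated genes -0.03. In the remaining cell machinery the medians were -0.11 for proteasome genes (29 of 39 lower in the day), 0.01 without CT12, -0.06 for ribosomal proteins and for endoplasmic reticulum folding genes, 0.03 for mitochondrial respiration and 0.04 for immunity. Among reported clock outputs the median was 0.04, and 5 of 22 had an unadjusted p under 0.05, where 7.11% of all genes did. Of these, 4 were higher in the day and Achl in the night, and the 4 were Ugt35B1, Mal-A6, CG10513 and Cpr72Ec.

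**Figure D4:**
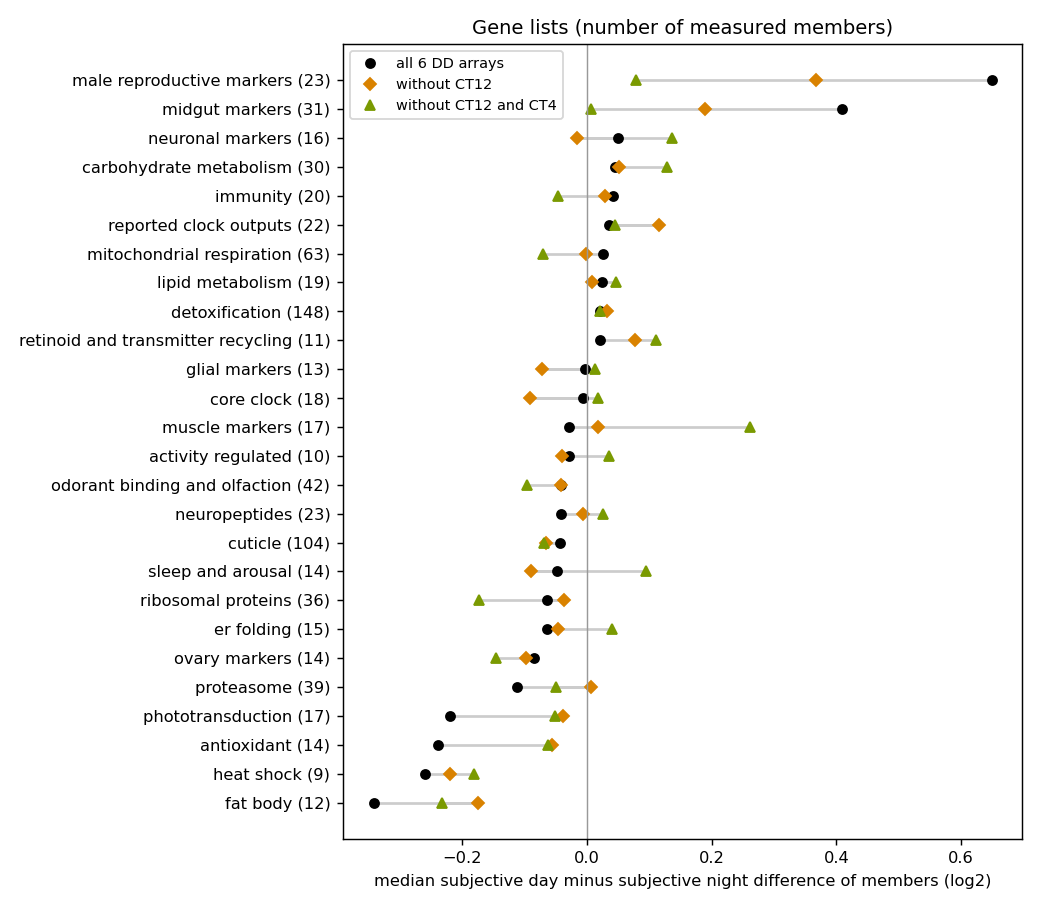
Each row is a gene list with its number of measured members, and each symbol the median day minus night difference (log2) of the members over all 6 DD arrays, without CT12, and without CT12 and CT4. Male reproductive markers (0.65, 0.37 and 0.08) and midgut markers (0.41, 0.19 and 0.01) lose most of their difference when CT12 and CT4 are left out.

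Of the 26 lists, markers of the male reproductive tract and the midgut had the medians farthest above 0. All 23 male reproductive markers were higher in the subjective day, with a median of 0.65 (log2). The median was 0.37 without CT12 and 0.08 without CT12 and CT4, where 13 of 23 were higher. The accessory gland gene Acp95EF measured 9.36, 6.28 and 10.04 in the day and 4.67, 4.84 and 6.95 in the night. Its CT8 value was thus below CT24. Midgut markers were higher in the day in 26 of 31 cases with a median of 0.41, and Jon99Fi measured 7.57, 5.25 and 8.68 in the day and 2.58, 2.40 and 6.20 in the night. With CT12 and CT24 both left out, 5 probe sets passed (0.0358%), all higher in the day. Among them were the digestive protease genes Jon65Aiv, Jon74E and yip7. At CT24, the night array left out, Jon65Aiv was 10.32, above CT4 (9.97) and CT8 (9.69). Jon74E was 8.68 at CT24, also above CT4 and CT8, and yip7 was 9.67 at CT24 and 9.68 at CT4. Without CT12 and CT24, 1880 of all genes (17.3%) lay above the night in both day arrays and 2137 (19.7%) below it. Muscle markers had a median of -0.03 and ovary markers of -0.08.

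The LD arrays, which share no array with the DD contrast, gave the same direction for a small set of genes. Of the 771 genes (7.11%) with an unadjusted limma p under 0.05 in DD and the 525 (4.84%) in LD, 47 were in both with the same direction, which is 6.10% of the DD genes and 8.95% of the LD genes. A further 4 had opposite directions. In LD, 2.3% of all genes were higher by day and 2.54% lower at this p. The differences of DD and LD correlated at 0.468 across 10845 genes, a description in which genes are not independent and the marker tissues are shared. Of the 47, 42 were higher by day, with CT12 the highest DD array in 34. In 26 of the 42 the arrays at 16 and 20 h were the 2 lowest on both days. These genes, named after their values were seen, included seminal fluid and ejaculatory genes (Acp95EF, Acp63F, Acp36DE, SP, EbpII and Anp) and Jon99Fi. Cyp4g1, a cytochrome P450 gene of oenocytes that makes cuticular hydrocarbons, measured 9.09, 8.48 and 10.78 in the subjective day and 6.0, 5.54 and 8.83 in the night, with 5.24 and 4.95 at ZT16 and ZT20. Without CT12, 12 of the 42 still had an unadjusted limma p under 0.05 (5.51% of all genes did), among them whe, CG10910, CG10911, CG16904 and Mal-A6. That fit holds arrays already used to choose the 42, so a share above that of all genes follows in part from the choice.

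The 5 genes higher by night on both days were Achl, CG10237, CG9426, CG17124 and GatB. Of these, 4 had an unadjusted limma p under 0.05 without CT12. They are 5 of the 388 genes higher by night in DD at this p. That is a smaller share than the 2.54% of all genes that were higher by night in LD. Among genes higher by day, 42 of 383 recurred in LD, where 2.3% of all genes were higher by day. By these counts, only genes higher by day recurred above the share of all genes. The counts were not tested, and genes are not independent. CT12 was the highest DD array in 34 of the 42, and 12 of the 42 had an unadjusted limma p under 0.05 without CT12. Achl, which encodes an RNA-binding protein, measured 4.21, 4.86 and 4.05 in the subjective day and 5.52, 5.44 and 5.11 in the subjective night. It differed by -0.98 ± 0.224 in DD, by -0.82 without CT12, and by -1.25 ± 0.311 in LD. No day value of Achl reached a night value in either DD or LD, where the light phase was at 4.04 to 4.55 and the dark phase at 4.89 to 6.05. CG10237 measured 8.47, 8.93 and 8.31 in the subjective day and 9.23, 9.57 and 9.28 in the subjective night (-0.79 ± 0.180 in DD and -0.48 ± 0.158 in LD). CG17124 measured 5.67, 5.67 and 5.28 and then 5.90, 5.93 and 6.10, with a difference of -0.43 in DD and -0.51 in LD.

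**Figure D5:**
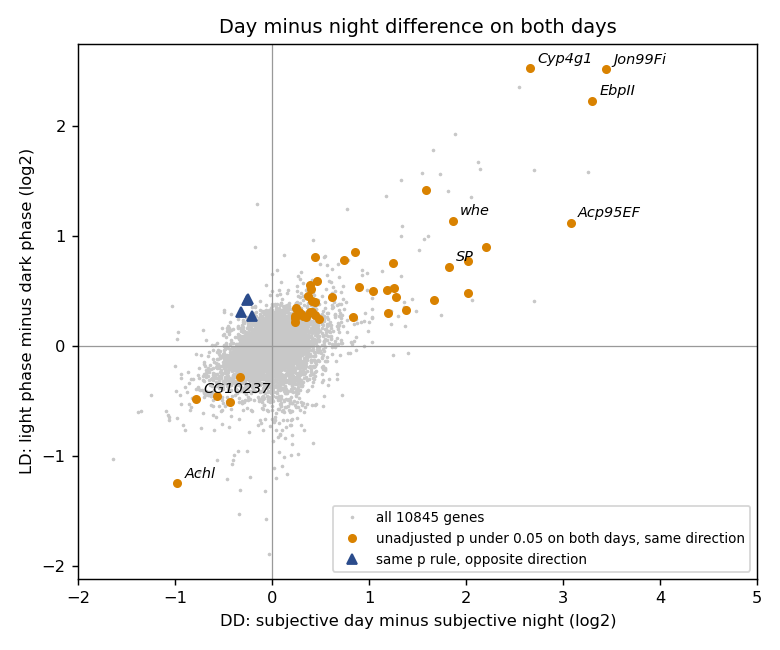
Each grey point is 1 gene, placed by its subjective day minus subjective night difference in DD (x axis, log2) and its light minus dark phase difference in LD (y axis, log2); orange circles are the 47 genes with an unadjusted p under 0.05 on both days in the same direction and blue triangles the 4 in opposite directions. The upper right holds Jon99Fi, EbpII, Acp95EF and Cyp4g1, and the lower left Achl and CG10237.

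The difference between DD and LD was tested directly as an interaction over all 12 arrays. In limma 0 of 13966 probe sets passed (0% called; smallest adjusted p 0.998) and 402 (2.88%) had an unadjusted p under 0.05. The 10 genes of smallest p therefore did not pass. Vmat was among them, with 0.51 in DD and -0.11 in LD (log2) by its brighter probe set. Most of the others, CG9815, TRAM, Send1, CG6426, the glyoxalase gene Glo1, CG3184 and X11Lbeta, were lower by day in DD and higher by day in LD. Glo1 measured 8.03 to 8.23 in the subjective day and 8.33 to 8.50 in the subjective night, and 8.54 to 8.82 in the light and 8.10 to 8.47 in the dark. The last 2, AANATL3 and mtrm, differed by 0.32 and -0.02 in DD and by -0.14 and 0.46 in LD. For tim the difference was -0.92 in DD and -0.72 in LD, and for tws 0.58 and 0.02, with an unadjusted limma p of the difference between days of 0.825 and 0.0794.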

How the data were processed

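Per the labels' protocols, biotin-labelled cRNA of heads isolated on sieves was hybridized to 1 array per time point. The authors deposited log2 values, 1 for each probe set and array. Per the submitters' processing notes they come from RMA, which brings the arrays to a common distribution; its version was not given in the sources used here. Of 14010 probe sets, 44 controls were left out and 13966 tested. Of these, 12443 had 1 gene in the platform annotation (12394 matched to RefSeq), 327 several and 1196 none; only those with 1 gene are named. A gene is represented by its probe set of highest mean over 12 arrays (10845 genes).

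Tests used limma 3.58.1 (lmFit, eBayes) in R 4.3.3 with Benjamini-Hochberg adjustment over all probe sets, on the 6 DD arrays (4 residual degrees of freedom); the LD arrays were fitted apart, and the interaction used all 12. Single array values had an exact permutation test. On data simulated for this comparison with 200 of 13966 probe sets changed, 0%, 89% and 99.5% were recovered at changes of 0.5, 1 and 2 (log2). The simulated noise was independent for each probe set and array, and all 200 changed by the same size. It held no differences shared by a whole array, such as those in RNA quality or tissue content. These shares therefore do not give the power on the real arrays. Alternatives changed the scaling, the filter, the variance prior, covariates and the arrays left out. P-values measure the spread between single arrays. Named genes were the 12 of smallest p per direction without overlap and with a mean at or above 4.95, all clock genes, 4 genes of smallest p per list and 10 for DD against LD. The 26 lists held 766 measured genes; 94 further entries matched no single-gene probe set and were not used, and 3 cyclophilin genes that matched a name prefix were removed. The comparison, members and lists were chosen with earlier results of these data known. Numbering of arrays is by accession and pairs none.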

Additional observations from a re-analysis of the deposited data

How the results depend on the processing

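The count of probe sets with an adjusted limma p under 0.05 was 5 without CT12 and CT24, ranged from 0 to 44 when each array was left out (44 without CT8, 3 without CT24), and was 0 under every other alternative run. At an unadjusted p under 0.05 it was 435 over probe sets above the median signal, 617 with the control signal and 650 with the midgut marker score as a covariate, and 416 (without CT20) to 2019 (without CT8) over single arrays left out, with 531 without CT16. Fewer probe sets are tested above the median signal, and the cause of the other shifts was not tested. Genes without overlap numbered 996 (day above) and 1475 (day below) without CT12, and 1880 and 2137 without CT12 and CT24, where fewer arrays have to be separated. The test between DD and LD gave 0 adjusted calls throughout, with 199 (without ZT20) to 1301 (without ZT4) at an unadjusted p under 0.05 over single arrays left out, 648 without CT8, and 1331 without ZT4 and CT12.

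No paired analysis was possible because array numbers within a group are only names and no array of the subjective day is matched to one of the night; with the clock hour as a replicate block over LD and DD, the test between days gave 0 adjusted calls and 535 unadjusted.

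Day minus night differences (log2) of these genes, none of which passed over all 6 arrays, turned sign: those with the control signal as a covariate were -0.12 for per, -0.0177 for Pdp1, -0.23 for Usp8, 0.22 for cry and -0.0515 for Pdf. Values with the midgut marker score as a covariate were -0.0533 for Pdp1, -0.0195 for Jon74E and 0.0165 for mtrm. Values without CT12 and CT24 were -0.12 for per, -0.0875 for vri, -0.51 for Usp8, 0.22 for cry and -0.10 for Pdf. Values without CT12 and CT4 were -0.0887 for per, 0.11 for eEF1alpha2, -0.16 for Usp8, 0.0303 for cwo, 0.10 for Atx2, 0.19 for cry, 0.0057 for jet, -0.11 for Pdf and 0.0093 for mtrm. The value after a further quantile normalization was 0.0002 for cyc. Over single arrays left out, the ranges of genes that turned sign were -0.0837 to 0.17 for per, -0.009 to 0.28 for Pdp1, -0.13 to 0.83 for Usp8, -0.14 to 0.0317 for cyc, -0.14 to 0.11 for cwo, -0.59 to 0.15 for Atx2, -0.38 to 0.12 for cry, -0.0855 to 0.0835 for Pdf and -0.0503 to 0.0072 for mtrm. Without CT8, Ttd14, mRpL33, BomT2, Spn38F, Ggamma30A, Pis, DnaJ-1, Gad1 and eEF1alpha2 passed, as did Jon65Aiv, Jon74E and yip7 without CT12 and CT24.

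List medians (log2) that moved by more than the spread between arrays follow. Medians with the control signal as a covariate were 0.037 for phototransduction, -0.0061 for antioxidant, 0.0559 for midgut markers, 0.22 for muscle markers, 0.11 for male reproductive markers, -0.13 for ovary markers and -0.18 for fat body. Medians with the midgut marker score as a covariate were 0.18 for reported clock outputs, 0.0764 for lipid metabolism, 0.0587 for detoxification, -0.0719 for mitochondrial respiration, -0.0272 for midgut markers, 0.18 for male reproductive markers, -0.18 for fat body and -0.0691 for glial markers. Medians without CT12 and CT24 were -0.0758 for antioxidant, -0.13 for ovary markers and -0.0535 for glial markers. Medians without CT12 and CT4 were 0.0942 for sleep and arousal, 0.026 for neuropeptides, -0.0617 for antioxidant, -0.0457 for immunity, 0.0403 for ER folding, -0.0707 for mitochondrial respiration, 0.006 for midgut markers, 0.26 for muscle markers, 0.0793 for male reproductive markers, -0.15 for ovary markers, 0.14 for neuronal markers and -0.0962 for odorant binding and olfaction. The median after a further quantile normalization was 0.0925 for lipid metabolism. The median over probe sets above the median signal was -0.12 for odorant binding and olfaction. Over single arrays left out, they ranged from -0.0906 to 0.12 for core clock, -0.26 to -0.0388 for phototransduction, -0.0891 to 0.0796 for sleep and arousal, -0.0525 to -0.0065 for neuropeptides, -0.0302 to 0.0575 for detoxification, -0.39 to -0.0568 for antioxidant, -0.33 to -0.13 for heat shock, -0.20 to -0.0367 for ribosomal proteins, -0.11 to 0.20 for muscle markers, -0.45 to -0.17 for fat body and -0.0752 to 0.0323 for glial markers. With 1 array per hour and no detection calls, signal over background is not known, and the number of arrays limits the precision; in the simulation no change of 0.5 was recovered.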
